A study of Homo sapiens with 8 samples.

Results

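The insulin-like growth factor (IGF) axis was followed through 10 genes: the binding protein genes IGFBP2, IGFBP3, IGFBP4, IGFBP5, IGFBP6 and IGFBP7, the receptor genes IGF1R and IGF2R, and the receptor substrate genes IRS1 and IRS2. They were taken by symbol from an Illumina bead array table of 31412 gene rows, and all 10 had a row. The cells were MDA-MB-231, a mesenchymal triple-negative breast cancer line, engineered to make oestrogen receptor beta (ERβ, encoded by ESR2) under doxycycline. Estradiol cultures received 100 ng/ml doxycycline and 1 nM 17-beta estradiol for 5 days. Vehicle cultures received the same doxycycline and ethanol for 5 days. There were 3 cultures per treatment. By the sample titles, a second RNA sample of estradiol culture 1 and of vehicle culture 3 was hybridised as a repeat array. This made 4 arrays per treatment. The series text instead assigns the estradiol repeat to culture 3, and the titles are followed here. The 2 arrays of a culture were averaged before the tests of treatment. Fits by array chip and the Dixon check for outlying arrays took the arrays singly. All cultures carried the inducible receptor and received doxycycline, so no group shows the response to estradiol without ERβ.

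IGF1 and IGF2 act through the receptor tyrosine kinase encoded by IGF1R, which phosphorylates the docking proteins IRS1 and IRS2 and so engages PI3K and AKT. The IGF-binding proteins are secreted carriers that hold IGFs away from the receptor or deliver them to it, and proteases release the ligand by cutting them. IGF2R has no kinase activity: it clears IGF2 from the cell surface and carries mannose-6-phosphate-tagged enzymes to lysosomes. In breast cancer cells that depend on oestrogen receptor alpha, IGF1R, IRS1 and IGFBP4 are known as oestrogen-responsive genes.

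Across the series, 10172 to 11123 rows were detected per array (detection p under 0.01), with a median deposited signal of 66.3 to 75.4. A row detected on at least 3 of the 8 arrays was tested, which left 11191 rows. Of 3 markers known in these cells, the mesenchymal gene VIM rose with estradiol (log2 change 0.68, adjusted p = 0.00204, limma) and CD44 did not pass. EGFR was called lower (log2 change -0.41, adjusted p = 0.0337, limma), with mean log2 signals of 7.36 in estradiol and 7.77 in vehicle cultures. It was detected on 0 of 4 estradiol and 3 of 4 vehicle arrays. The EGFR row combines probes, so its detection p does not order its signal. Of 3 receptor markers of triple-negative status, ESR1 and PGR were detected on no array. ERBB2, whose row combines probes, was detected on 0 of 4 estradiol and 1 of 4 vehicle arrays and was not tested. Its mean log2 signal was 7.85 in estradiol and 7.82 in vehicle cultures. Of 6 luminal epithelial markers 5 were tested, of which KRT8, KRT19 and EPCAM rose with estradiol and GATA3 fell. KRT18 did not pass (log2 change 0.43, adjusted p = 0.0865, limma), and FOXA1 was not detected. The summed linear signal of the 6 was 23949 to 24212 in estradiol and 6538 to 8220 in vehicle cultures. This sum mostly follows KRT19 and KRT8, at mean log2 signals of 13.96 and 12.80 in estradiol cultures, against 9.30 for EPCAM, the next highest. Of 5 markers of leukocytes, endothelium, fibroblasts and liver, 1 (ACTA2) was tested and did not pass. PTPRC, PECAM1 and COL1A1 were detected on no array, and ALB was detected on 1 of 4 estradiol arrays and not tested. The sum of the 5 was 542 to 667 in estradiol and 549 to 685 in vehicle cultures. The part of these marker changes in the results on the IGF axis was not tested. ESR2 had a mean log2 signal of 10.18 ± 0.06 in estradiol cultures against 11.35 ± 0.17 in vehicle cultures (SD, n = 3 each). Across rows, the first and repeat arrays of vehicle culture 3 correlated at r = 0.979, below every other pair of vehicle arrays (0.984 to 0.992). The arrays lay on 2 chips. Chip A held estradiol culture 1 and vehicle cultures 1 and 3 (repeat), and chip B held the other 5 arrays. Precision is limited by the number of cultures, 3 per treatment, to which the repeat arrays add no replicate. No separate day or passage is given for the replicates, so a p-value here reflects how far these cultures differ, which may be technical.

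With estradiol, IGFBP4 rose 6.34-fold, IGFBP6 rose 3.23-fold and IRS1 rose 1.68-fold, while IGFBP7 fell to 0.532 of its vehicle level. IGFBP3, IGF2R and IRS2 were detected on every array and did not pass the test. IGFBP2, IGFBP5 and IGF1R were not detected on any of the 8 arrays. Of the 7 genes tested, 3 were therefore higher and 1 was lower at an adjusted p under 0.05 (limma). Over all rows tested the corresponding share of calls was 27.5%, with 13.5% higher and 14% lower. Rises made up 49.1% of all calls, against 78.5% when arrays were centred on the median of all rows and 38.2% when centred on that of the tested rows, and neither centring changed a call among the 7 genes. The median log2 change was 0.27 for the 7 genes and -0.02 for all rows tested. The arrays measured bulk RNA, in which fewer cells expressing a gene and less RNA of it per cell cannot be told apart.

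**Figure D1:**
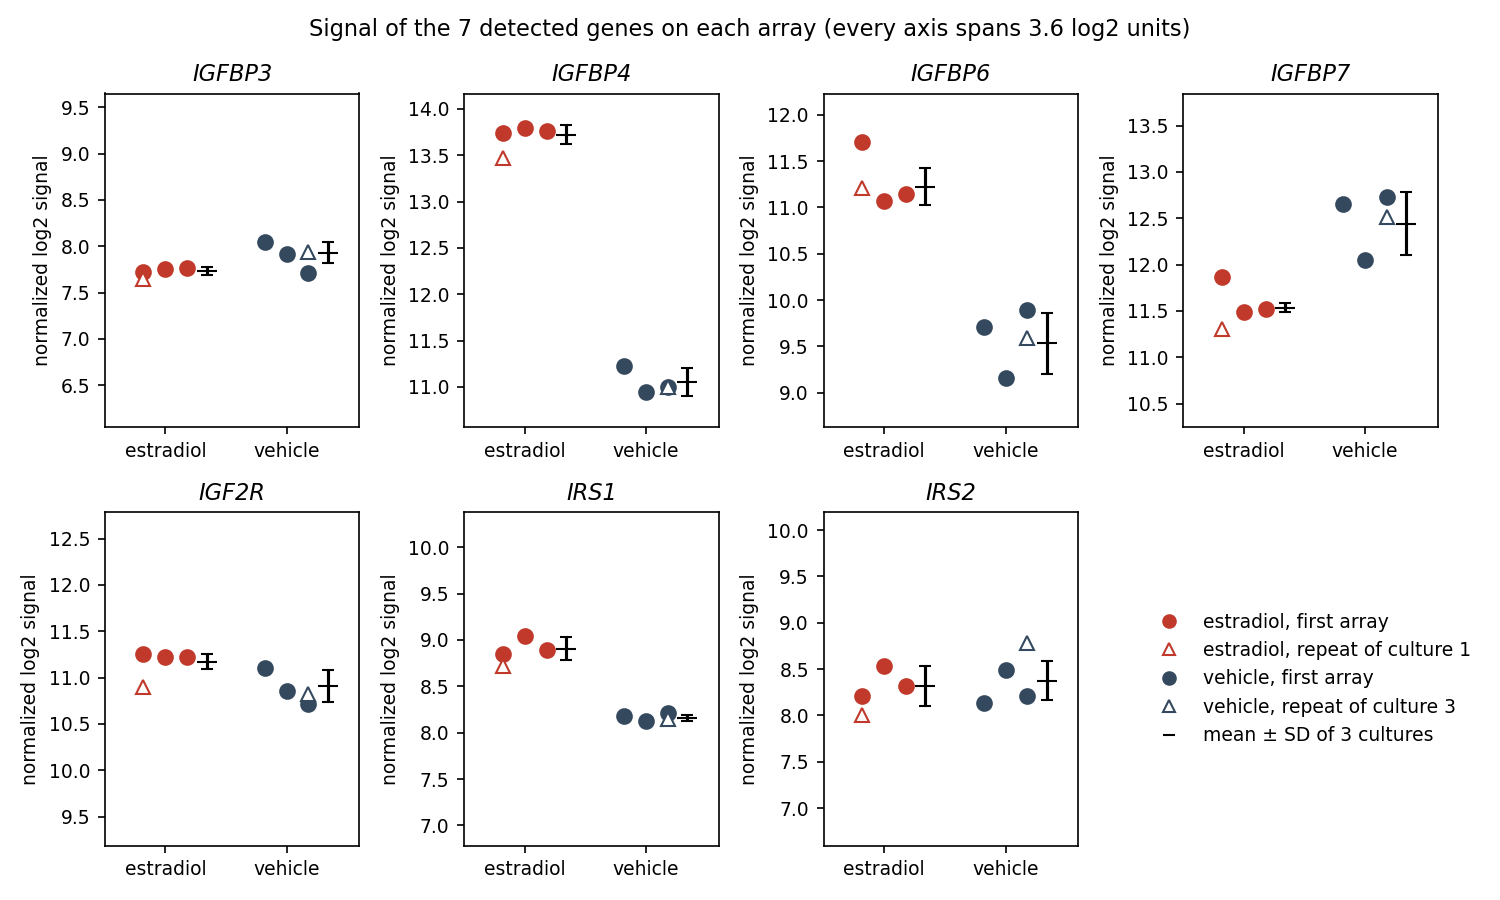
Normalized log2 signal (vertical axes, all of the same span) of the 7 detected genes on each array, estradiol at the left and vehicle at the right of each panel. Filled circles are first arrays, open triangles are repeat arrays, and bars are the mean ± SD of 3 cultures. IGFBP4, IGFBP6 and IRS1 lie higher in all estradiol arrays, and IGFBP7 lies lower.

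The promoters of the 3 genes that rose are shown because they moved together, and that of IGFBP3 because it is a detected binding protein gene that did not pass. Each window runs from 250 bases before to 50 bases after a gene's start, 5′ to 3′ on the gene's strand, from the RefSeq annotation of GRCh38.p14. Capitals mark matches to any of 5 motifs searched on both strands: the full oestrogen response element GGTCANNNTGACC, its half-site GGTCA, the AP-1 site TGANTCA, the GC box GGGCGG and the TATA box TATAAA. A full element contains both of its half-sites, and overlapping GC boxes were each counted.
IGFBP4 promoter, chr17:40443200-40443499 (+ strand): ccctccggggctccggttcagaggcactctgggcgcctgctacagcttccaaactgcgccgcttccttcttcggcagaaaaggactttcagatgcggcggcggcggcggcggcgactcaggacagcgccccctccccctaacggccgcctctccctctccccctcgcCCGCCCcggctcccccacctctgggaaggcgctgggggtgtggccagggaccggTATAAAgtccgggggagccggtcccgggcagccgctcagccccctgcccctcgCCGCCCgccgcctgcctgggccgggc
IGFBP6 promoter, chr12:53097417-53097716 (+ strand): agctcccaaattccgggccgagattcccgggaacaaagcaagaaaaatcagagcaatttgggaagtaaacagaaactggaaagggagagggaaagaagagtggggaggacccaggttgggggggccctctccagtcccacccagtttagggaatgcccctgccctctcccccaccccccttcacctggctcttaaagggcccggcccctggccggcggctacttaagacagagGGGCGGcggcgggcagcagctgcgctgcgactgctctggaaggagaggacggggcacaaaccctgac
IRS1 promoter, chr2:226799771-226800070 (- strand): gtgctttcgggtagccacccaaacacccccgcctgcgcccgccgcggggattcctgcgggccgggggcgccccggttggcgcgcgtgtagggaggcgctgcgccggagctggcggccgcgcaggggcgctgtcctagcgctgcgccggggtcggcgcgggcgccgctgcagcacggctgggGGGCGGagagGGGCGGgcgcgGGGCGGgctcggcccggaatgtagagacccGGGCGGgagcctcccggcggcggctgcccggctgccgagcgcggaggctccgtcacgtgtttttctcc
IGFBP3 promoter, chr7:45921223-45921522 (- strand): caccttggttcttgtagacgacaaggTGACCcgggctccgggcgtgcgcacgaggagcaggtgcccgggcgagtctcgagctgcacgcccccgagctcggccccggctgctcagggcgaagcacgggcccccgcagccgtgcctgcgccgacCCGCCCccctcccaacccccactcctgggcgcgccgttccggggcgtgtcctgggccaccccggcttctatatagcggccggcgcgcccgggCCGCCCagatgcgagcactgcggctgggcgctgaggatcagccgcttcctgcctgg

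Of the 10 genes, 9 matched a window in this annotation, and IGFBP7 did not. No window of the 9 genes held the full oestrogen response element, which 0.057% of all 35116 promoter windows held, or the AP-1 site, which 7.71% held. The half-site was absent from the IGFBP4, IGFBP6 and IRS1 windows. It occurred 1 time in that of IGFBP3, 1 time among the 3 windows of IGFBP2 and 2 times in that of IGF2R, against 37.4% of all windows with at least 1 match. A GC box was present in the windows of IGFBP4 (2 matches), IGFBP6 (1), IRS1 (4) and IGFBP3 (2), and in 45% of all windows. IGFBP4 was the only one of the 9 genes with a TATA box (11.5% of all windows), starting at position -29 relative to the gene's start. The windows of IGFBP4, IRS1 and IGFBP3 were GC-rich, with 74%, 79.3% and 74.7% G or C, and that of IGFBP6 had 61.7%, against a median of 58.7% over all windows. These matches describe the printed letters and are not evidence of binding.

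IGFBP4 encodes a binding protein that mostly restrains IGF action until the protease PAPPA cuts it. Its deposited signal on the estradiol arrays was 14825 in culture 1, 11053 in the repeat of culture 1, 14875 in culture 2 and 14187 in culture 3. On the vehicle arrays it was 2694 in culture 1, 1812 in culture 2, 2020 in culture 3 and 1683 in the repeat of culture 3. The groups were far apart, and within estradiol the repeat array was the low one. After background correction and quantile normalization the mean log2 signal was 13.72 ± 0.10 in estradiol and 11.06 ± 0.15 in vehicle cultures (SD, n = 3 each). The log2 change was 2.67 (SE 0.118, 95% confidence interval 2.40 to 2.93, adjusted p = 1.6e-07, limma), the 28th largest rise of the 11191 rows tested. IGFBP4 and IGFBP6 were the genes of the axis called with a change of at least 2-fold, as were 4.21% of rows tested. The IGFBP4 change was 2.63 in the arrays of chip A and 2.70 in those of chip B. A block for chip, fitted to all 8 arrays with repeats not averaged, gave 2.68. IGFBP4 passed the threshold in all 26 other settings tried, with changes of 2.53 to 2.97.

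IGFBP6, which encodes the binding protein with a marked preference for IGF2 over IGF1, followed the same direction. Its deposited signal was 3713, 2369 (repeat), 2368 and 2512 on the arrays of estradiol cultures 1, 1, 2 and 3. It was 976, 551, 931 and 685 (repeat) on those of vehicle cultures 1, 2, 3 and 3. No array of one treatment reached the range of the other, and the first array of estradiol culture 1, on chip A, was the highest. Mean log2 signals were 11.22 ± 0.20 in estradiol and 9.53 ± 0.33 in vehicle cultures (SD, n = 3 each), a change of 1.69 (SE 0.171, 95% confidence interval 1.31 to 2.07, adjusted p = 5.98e-05, limma). A rise called at this size or larger was found for 0.786% of the rows tested. The change was 2.05 within chip A alone and 1.62 within chip B alone, which passed (adjusted p = 0.000359, limma). Chip A held 1 estradiol array, so its value has no replicate of that treatment and a p from it assumes the spread of the vehicle arrays.

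IGFBP7 encodes a related secreted protein with low affinity for IGFs, and it was the 1 gene that fell of the 7 tested. Its deposited signal was 4122, 2505 (repeat), 3150 and 3220 on the arrays of estradiol cultures 1, 1, 2 and 3. It was 7235, 3929, 6829 and 4622 (repeat) on those of vehicle cultures 1, 2, 3 and 3. On this scale the highest estradiol array exceeded the lowest vehicle array, from culture 2. After normalization the arrays no longer overlapped, with log2 signals of 11.31 to 11.86 in estradiol and 12.05 to 12.72 in vehicle. Culture means were 11.53 ± 0.05 in estradiol and 12.44 ± 0.34 in vehicle (SD, n = 3 each). The small estradiol SD rests in part on averaging the arrays of culture 1, at 11.86 and 11.31 (repeat), to 11.59. Single arrays spread over ranges of similar width in both treatments, and a difference in spread was not tested. The log2 change was -0.91 (SE 0.158, 95% confidence interval -1.26 to -0.56, adjusted p = 0.00203, limma). A fall called at this size or larger was found for 1.73% of rows tested. Within chip B alone the change was -0.95 (adjusted p = 0.00681, limma), and within chip A, with 1 estradiol array, it was -0.72 and did not pass (adjusted p = 0.237, limma).

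IGFBP3, which encodes the main IGF carrier of serum, did not pass. Its log2 signal was 7.72, 7.65 (repeat), 7.75 and 7.76 on the arrays of estradiol cultures 1, 1, 2 and 3. It was 8.05, 7.92, 7.71 and 7.94 (repeat) on those of vehicle cultures 1, 2, 3 and 3. The first array of vehicle culture 3 lay inside the estradiol range, whereas the 3 culture means of each treatment did not overlap, as held for 42.8% of rows tested. The change was -0.20 (95% confidence interval -0.44 to 0.04, adjusted p = 0.196, limma).

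IRS1 and IRS2 encode docking proteins under IGF1R and the insulin receptor. IRS1 passed the test and IRS2 did not. The IRS1 log2 signal was 8.85, 8.72 (repeat), 9.04 and 8.90 on the arrays of estradiol cultures 1, 1, 2 and 3. It was 8.18, 8.12, 8.21 and 8.15 (repeat) on those of vehicle cultures 1, 2, 3 and 3. All estradiol arrays lay above all vehicle arrays, and the vehicle arrays were close to each other. The IRS1 change was 0.75 (SE 0.109, 95% confidence interval 0.50 to 0.99, adjusted p = 0.000707, limma). It was 0.69 within chip A, with 1 estradiol array (adjusted p = 0.259, limma), and 0.72 within chip B (adjusted p = 0.00606, limma). The size of the IRS1 change depended on the background correction, at 0.34 when the background was inferred from all rows.

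For IRS2 the log2 signal was 8.21, 8.01 (repeat), 8.53 and 8.32 on the arrays of estradiol cultures 1, 1, 2 and 3. It was 8.13, 8.49, 8.21 and 8.78 (repeat) on those of vehicle cultures 1, 2, 3 and 3. The treatments overlapped, and the repeat array of vehicle culture 3 was the highest of all, 0.57 above the first array of its culture. The IRS2 change was -0.06 (95% confidence interval -0.38 to 0.27, adjusted p = 0.811, limma). The difference between the genes was taken within each culture as the IRS1 minus the IRS2 log2 signal. It averaged 0.59 ± 0.08 in estradiol and -0.21 ± 0.23 in vehicle cultures (SD, n = 3 each), with ranges of 0.51 to 0.68 and -0.37 to 0.05 that did not overlap. An exact two-sided permutation test of this single comparison gave p = 0.1, the smallest that 3 against 3 cultures allow. Ranges that do not overlap always give this value, so the test adds nothing to them.

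IGF2R log2 signals were 11.25, 10.90 (repeat), 11.23 and 11.22 on the arrays of estradiol cultures 1, 1, 2 and 3. They were 11.10, 10.85, 10.71 and 10.82 (repeat) on those of vehicle cultures 1, 2, 3 and 3. The first arrays of the estradiol cultures lay above all vehicle arrays, and the repeat array of estradiol culture 1 lay within the vehicle range. The change was 0.27 (95% confidence interval -0.00 to 0.53, adjusted p = 0.128, limma). It passed without vehicle culture 1 (0.36, adjusted p = 0.0376, limma) and with array weights (0.42, adjusted p = 0.000815, limma), which were 2 of the 26 settings. Without the repeat array of estradiol culture 1 it was 0.33 (adjusted p = 0.0738, limma). On that array all 7 detected genes read lower than on the first array of estradiol culture 1, with differences of -0.55 to -0.07, and 50.2% of all rows tested did so. Its part in the results was not tested beyond these values.

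**Figure D2:**
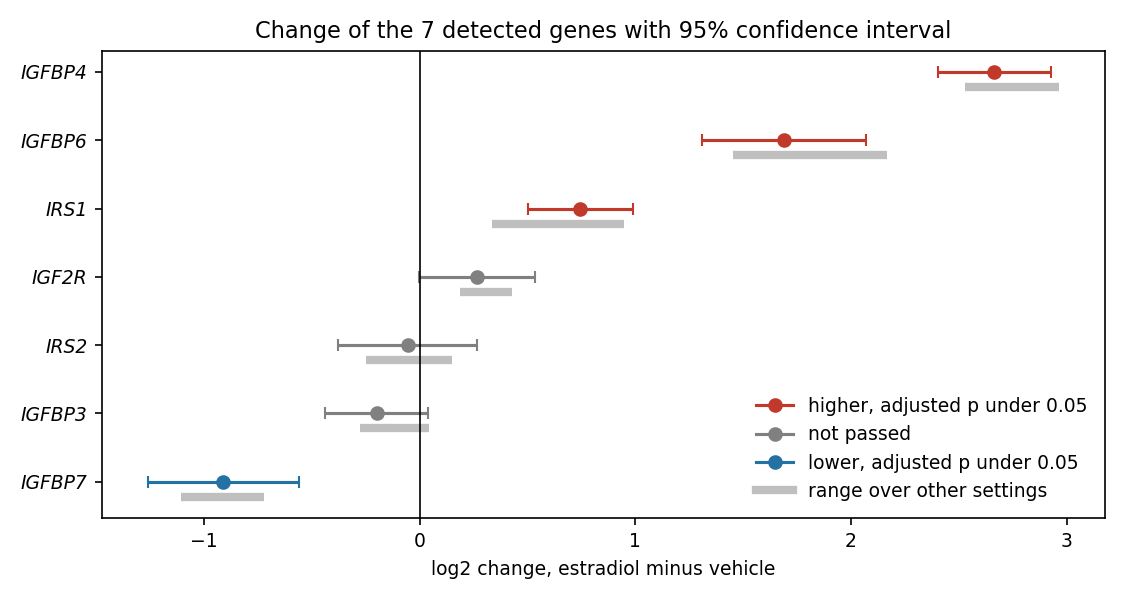
Log2 change, estradiol minus vehicle (horizontal axis), of the 7 detected genes. Points and thin bars are the fitted change and its 95% confidence interval, and grey bars the range over 26 other settings. IGFBP4, IGFBP6 and IRS1 lie above 0 and IGFBP7 below 0 in every setting, whereas the ranges of IGFBP3 and IRS2 include 0.

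IGF1R, the signalling receptor of the axis, was not well above background on any array. Its deposited signal was 63.4, 58.4 (repeat), 62.8 and 60.2 on the arrays of estradiol cultures 1, 1, 2 and 3, with detection p-values of 0.314 to 0.549. It was 56.8, 60.1, 52.3 and 54.9 (repeat) on those of vehicle cultures 1, 2, 3 and 3, with detection p-values of 0.408 to 0.9. These values lay around the background mean of 59.2 to 65.5 inferred for the arrays. The same held for IGFBP2, an IGF carrier, at 53.1 to 72.6 on estradiol and 54.6 to 66.1 on vehicle arrays (lowest detection p 0.074 and 0.2). IGFBP5, a carrier that also binds extracellular matrix, read 58.3 to 66.8 on estradiol and 57.4 to 70.7 on vehicle arrays (lowest detection p 0.309 and 0.326). The IGFBP5 row combines probes, so its detection p does not order its signal, but the signal itself lay around the same background. No fold change is given for these 3 genes, since both treatments were at background. A signal at background bounds what these array rows detect and does not show that the transcripts were absent.

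**Figure D3:**
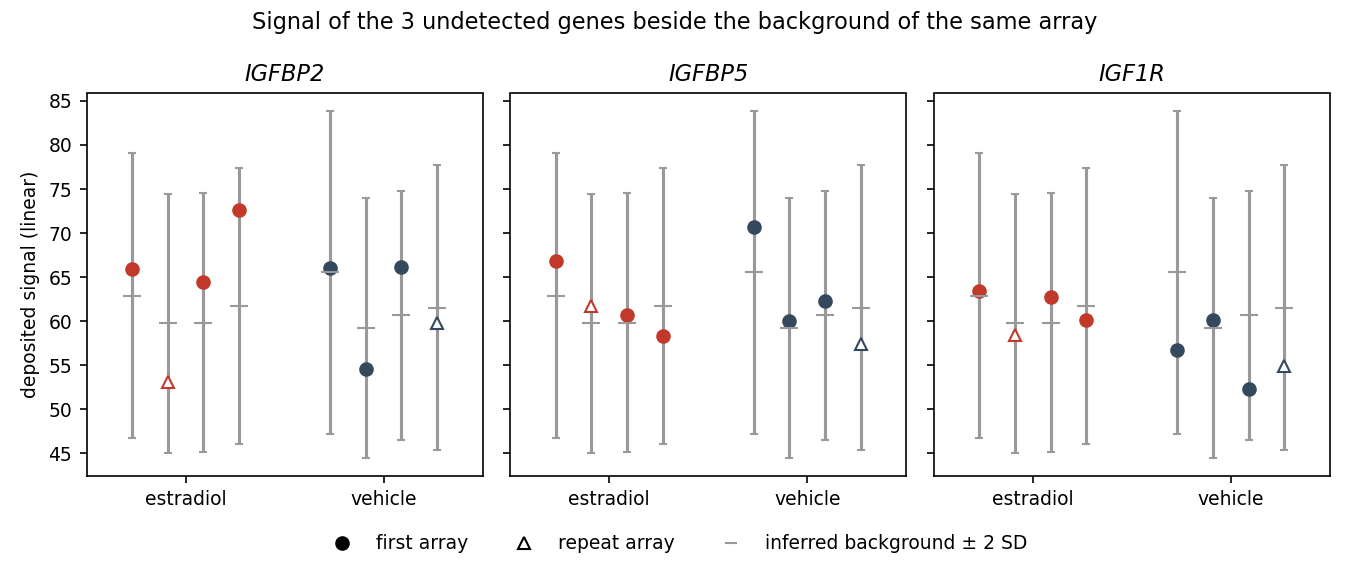
Deposited linear signal (vertical axis) of IGFBP2, IGFBP5 and IGF1R on each array, estradiol at the left and vehicle at the right. Circles are first arrays, triangles are repeat arrays, and grey bars the background mean ± 2 SD inferred for the same array. All points lie within those bars.

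The surrounding pathway was described with 103 further genes in 8 lists, of which 66 were tested. Of these, 11 rose, 12 fell and 43 did not pass, with a median log2 change of -0.03. The share called, 34.8%, compares with 27.5% over all rows tested. A gene left untested was not always at background, since detection p does not order the signal of rows that combine probes. Such rows were left untested for ITGB1 (mean log2 signal 11.14 in estradiol and 10.92 in vehicle cultures) and FOXO3 (8.27 and 8.22). Neither IGF1 nor IGF2 was detected on any array, nor was IGFALS, the serum partner of IGFBP3. The IGF1 and IGF2 rows also combine probes. Their mean log2 signals were low, at 4.47 and 4.45 in estradiol and 4.43 and 4.41 in vehicle cultures. IGFBP1, the insulin-repressed hepatic binding protein gene, was detected on all arrays at a mean log2 signal of 8.40 ± 0.11 in estradiol and 8.14 ± 0.21 in vehicle cultures (SD, n = 3 each) and did not pass (change 0.26, adjusted p = 0.173, limma). IGFBPL1, which encodes a protein resembling the binding proteins, was at -0.57 (adjusted p = 0.0652, limma).

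Of 10 tested genes for proteases that cut IGF-binding proteins and for their inhibitors, 4 rose, 4 fell and 2 did not pass, against 13.5% higher and 14% lower over all rows tested. The difference between the lists was not tested. The aspartic protease gene CTSD, whose product travels to lysosomes on mannose-6-phosphate receptors such as IGF2R, rose by a log2 change of 2.67. PLAT rose by 1.37 and PLAU by 0.76. STC1, which encodes a secreted inhibitor of PAPPA, rose by 1.15. PAPPA itself, the protease of IGFBP4, fell by 1.36 (adjusted p = 0.000482, limma) and was detected on 3 of 4 estradiol and 4 of 4 vehicle arrays. Its mean log2 signal was 5.34 in estradiol and 6.70 in vehicle cultures. The estradiol mean lay within the lowest detected level on the estradiol arrays, 5.12 to 5.36, so the size of the PAPPA fall is not well measured. HTRA1, a secreted serine protease gene, fell by 1.05. The collagenase gene MMP1 fell by 2.95. The stromelysin gene MMP3 was called lower (adjusted p = 6.75e-07, limma) and was detected on 1 of 4 estradiol and 4 of 4 vehicle arrays. Its mean log2 signal was 5.17 in estradiol and 7.15 in vehicle cultures, and since the lowest detected level on the estradiol arrays was 5.12 to 5.36, the size of the MMP3 fall is not well measured. CTSB (-0.34) and TIMP1 (0.22) did not pass. KLK3 was detected on no array and so was not tested, but its mean log2 signal was 7.17 in estradiol and 4.66 in vehicle cultures. The KLK3 row combines probes, so its detection p does not order its signal. PAPPA, STC1, HTRA1, PLAT, PLAU and KLK3 were chosen for this paragraph after their values were seen.

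Of 18 tested adaptors and regulators downstream of the receptors 2 rose, 2 fell and 14 did not pass, a share called of 22.2% against 27.5% of all rows tested. CUL7, the cullin of an E3 ligase known to target IRS1, rose by 0.70 (adjusted p = 0.00194, limma), and the adaptor gene GRB10 rose by 0.58 (adjusted p = 0.0047, limma). GRB10 was detected on 3 of 4 arrays of each treatment. Its row combines probes, so its detection p does not order its signal. NEDD4, which encodes a ubiquitin ligase that acts with GRB10 on IGF1R, was detected on 0 of 4 estradiol and 3 of 4 vehicle arrays and was called lower, with a fitted log2 change of -0.70 (mean log2 signal 6.35 in estradiol and 7.04 in vehicle cultures, adjusted p = 0.00204, limma). The NEDD4 row combines probes, so its detection p does not order its signal, and no bound is given.

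Of 23 tested genes of PI3K, AKT and mTOR signalling, 1 rose, 5 fell and 17 did not pass, a share called of 26.1%, about that of all rows tested (27.5%). EIF4EBP1, the translation repressor that mTOR inactivates, fell by 0.79 (adjusted p = 0.00141, limma). SESN2, a stress-induced inhibitor of mTOR complex 1, was detected on 0 of 4 estradiol and 3 of 4 vehicle arrays and was at least 1.51-fold lower with estradiol (adjusted p = 0.00314, limma). Among the FOXO factors, which AKT keeps out of the nucleus, FOXO1 rose by 0.47 (adjusted p = 0.0187, limma), and 1 of 2 tested did not pass. FOXO1 was detected on 4 of 4 estradiol and 2 of 4 vehicle arrays. Its mean log2 signal was 5.87 in estradiol and 5.40 in vehicle cultures, so the size of its rise is not well measured. Both tested genes for proteins that bind IGF2 mRNA, IGF2BP2 (-0.04) and IGF2BP3 (-0.14), did not pass, nor did M6PR, the second mannose-6-phosphate receptor gene (-0.21).

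Of 8 tested partners of the binding proteins outside IGF binding, 3 rose, 1 fell and 4 did not pass, against 13.5% higher and 14% lower over all rows tested. FN1, which encodes fibronectin, rose by 1.46, and CAV1, which encodes the main protein of caveolae, rose by 0.92. The FN1 row combines probes, and its vehicle mean log2 signal was 5.24. The lowest detected single-probe level on the vehicle arrays was 5.24 to 5.39, so the size of the FN1 rise is not well measured. PTPRB, a receptor tyrosine phosphatase gene, fell by 1.30 (adjusted p = 3.02e-05, limma).

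**Figure D4:**
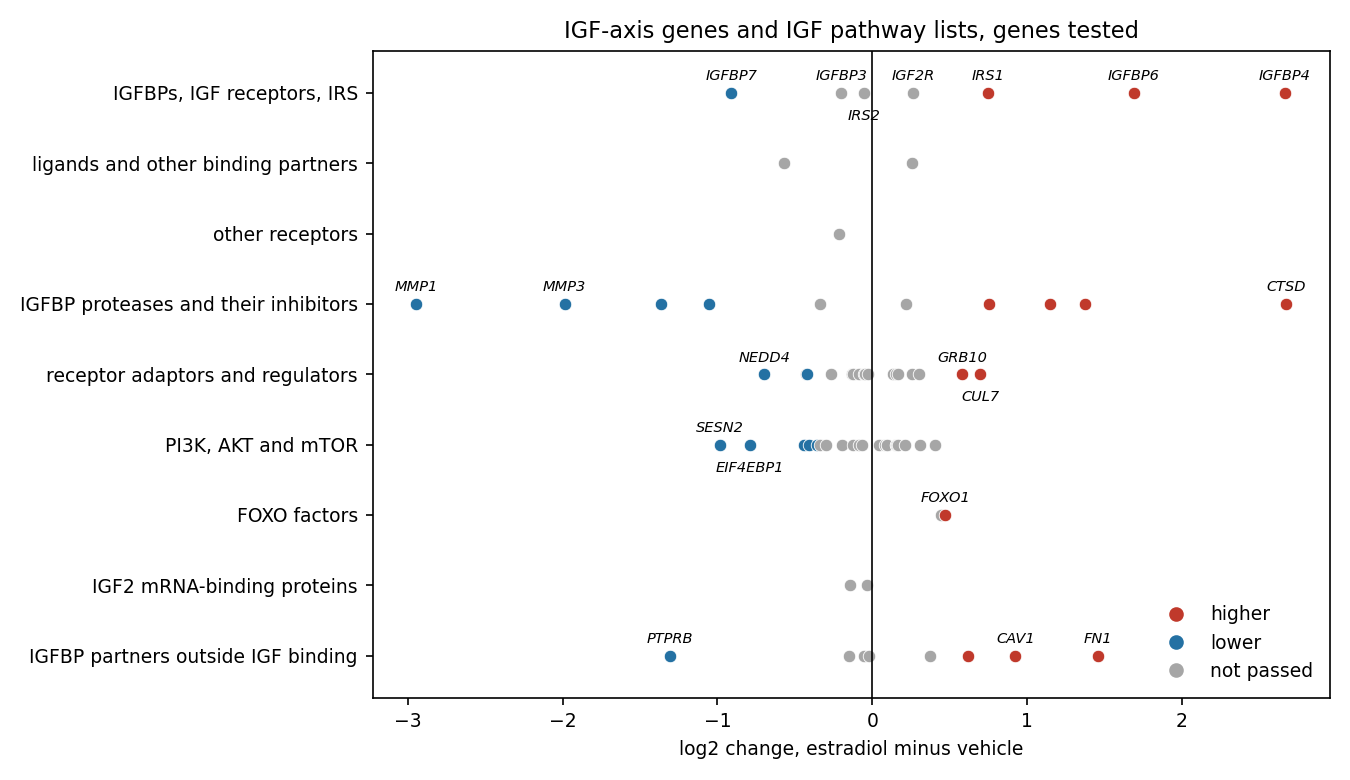
Log2 change, estradiol minus vehicle (horizontal axis), of tested genes of the IGF axis and of 8 pathway lists (rows). Points are genes, red for higher, blue for lower and grey for not passed. The 10 tested protease and inhibitor genes spread from -2.95 (MMP1) to 2.67 (CTSD), whereas most genes of PI3K, AKT and mTOR signalling lie near 0.

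Rows with the most similar profiles were ranked for the largest rise and the largest fall by the root mean square difference over the 6 cultures, each row being set to its vehicle mean. For IGFBP4 the closest rows were VASN, encoding the transmembrane protein vasorin (difference 0.0778, log2 change 2.60), the neural cell adhesion molecule gene NCAM2 (difference 0.15) and HAVCR2, encoding the immune receptor TIM-3 (difference 0.164, log2 change 2.49). NCAM2 was detected on 4 of 4 estradiol and 0 of 4 vehicle arrays and was at least 4.23-fold higher with estradiol. For IGFBP7 they were the annexin gene ANXA10 (difference 0.0959), the smoothelin gene SMTN (difference 0.111, log2 change -0.92) and CTSS, encoding cathepsin S (difference 0.118). Neither ANXA10 nor CTSS was detected on an estradiol array, and they were at least 1.13-fold and at least 1.47-fold lower with estradiol. The likeness of NCAM2, ANXA10 and CTSS therefore rests on signals at background in one treatment, and their order is not read. These profiles were not tested against each other, and the difference mostly follows the treatment step.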

How the data were processed

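Total RNA of 6 cultures was labelled as biotinylated cRNA for hybridisation to Illumina bead arrays, as the labels' protocols state. The signal intensity deposited by the authors is not normalized between arrays and comes with a detection p-value per array, per the file headers. A second deposited table of 31405 rows holds intensity that the authors normalized; the method and the scanner software are not given in the sources used here.

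With R 4.3.3 and limma 3.58.1, signals were corrected by normexp. The background (mean 59.2 to 65.5, SD 7.09 to 9.17 per array) was inferred from the detection p-values of 23850 rows whose p-values are whole multiples of 1 part in 770 (within 0.002), as for single probes. The other 7562 rows were taken to combine probes. An offset of 16, quantile normalization and log2 followed. Arrays of a culture were averaged, following the sample titles; the series text instead assigns the estradiol repeat to culture 3. Rows with detection p under 0.01 on at least 3 of 8 arrays (11191) were fitted with lmFit and eBayes on treatment alone, with Benjamini-Hochberg adjustment over all of them; 20221 rows were set aside, and 3266 blank rows left out. Where a treatment had no detected array, the fold is a bound against the lowest detected single-probe level. The fit was tested on simulated data.

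The 10 genes, the pathway lists and the tests were chosen with earlier results of these data known. All 10 genes were named, with up to 3 called genes of smallest p per pathway list and the 3 rows most like the largest rise and fall. Rows whose detection p is 0 on every array, as for the 7 tested genes, cannot be classed as single or combined. Deviations of same-numbered cultures correlated at 0.13, 0.13 and -0.03, and those of differently numbered cultures at -0.16 to 0.09. The numbers were not treated as pairs, and a fit with the replicate number as a block is given below. Protein comparisons were not made here. A gene of the pathway lists is included in the counts but is otherwise, figures included, not reported here. Figures used matplotlib 3.10.9.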

Additional observations from a re-analysis of the deposited data

Results flagged for a closer look

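The repeat array of estradiol culture 1 lay apart from the other 3 estradiol arrays for 2 genes. IGFBP4 had a log2 signal of 13.47 on it, against 13.74 to 13.79 on the others, and IGF2R had 10.90, against 11.22 to 11.25. Each gap passed Dixon's 95% critical value for 4 values, with ratios of 0.847 and 0.897. Chance flags about 1 in 20 groups, 14 groups of 4 arrays were examined, and the repeat shares its culture with 1 of the 3 arrays it was set against. Without this array the log2 change was 2.71 for IGFBP4 and 0.33 for IGF2R.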

How the results depend on the processing

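Over 26 other settings IGFBP4 and IGFBP6 passed in all, and IGFBP7 and IRS1 in all but 1. In the 3 arrays of chip A, whose lone estradiol array takes its spread from the vehicle arrays, IGFBP7 (-0.72) and IRS1 (0.69) no longer passed, 276 rows were higher and 122 lower, and pathway calls fell to 3 higher and 3 lower; fewer samples entered that fit. IGF2R passed with array weights (0.42) and without vehicle culture 1; leaving out each culture in turn gave 0.20 to 0.36. Array weights called 3075 rows higher and 3413 lower, and 23 pathway genes higher and 20 lower; the cause was not tested. Centring each array on the median of all rows moved the median change to 0.15, made 78.5% of calls rises in place of 49.1% (2273 higher, 622 lower), turned IGFBP3 to 0.04 and IRS2 to 0.15, neither called, and IGFBP1 passed at 0.47. Centring on the tested rows gave 38.2% rises. IRS2 kept its direction in 20 of 26 settings. Leaving out each culture, 914 to 1675 rows were lower (914 without vehicle 3, 992 without estradiol 2, 924 without estradiol 3) and 1031 to 1673 higher. Of the pathway genes, 10 to 17 were then higher and 8 to 13 lower. The 17 came without vehicle 1, where 1673 rows were higher. IGFBP6 had its largest change, 2.17, with the background inferred from all rows. With the replicate number as a block IGFBP4 changed by 2.67, 1582 rows were higher and 1659 lower, and no call among the 7 genes changed. Averaging the estradiol repeat with culture 3, as the series text assigns it, gave 2.66 for IGFBP4 and -0.85 for IGFBP7. The calls of the 7 genes were again the same. Without the vehicle 3 repeat array, chosen after the data were examined, all 7 calls were the same. Signals at background limit IGFBP2, IGFBP5 and IGF1R.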
